A study of Rattus norvegicus with 64 samples.

Results

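Interferon response genes are genes whose transcription rises when a cell senses interferon. Under that heading 8 genes, among them a receptor for interferon, were followed in the 32551 rat gene rows of the count tables. They were chosen by name, with earlier results of these data known. The 8 are Mx2, Mx1, Ifnlr1, Gbp2, Oas1a, Irf7, Isg15 and Ifit3, each of which matched 1 row. The study sequenced RNA from the hippocampus and the cortex of 32 rats labelled ApoE3 or ApoE4 (apolipoprotein E, which carries lipids, in 2 human variants), and asked how doxorubicin, an anthracycline chemotherapy drug, changes these regions. Treated rats received 2 mg/kg of doxorubicin a week for 4 weeks from the age of 5 weeks, control rats received phosphate-buffered saline (PBS), and both regions were collected 5 to 6 weeks after dosing ended. The 8 groups were hippocampus and cortex of ApoE3 rats on PBS, ApoE3 rats on doxorubicin, ApoE4 rats on PBS and ApoE4 rats on doxorubicin. Each group held 8 libraries, 4 from males and 4 from females, and every rat gave 1 library per region. The labels give neither the strain nor the way the alleles were made, and the rat numbers of each genotype, sex and treatment fall in a run of their own, so a batch that follows the numbers cannot be told apart from genotype or treatment.

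Type I and type III interferons are secreted when cells sense foreign or misplaced nucleic acid. They bind separate receptors that share the same JAK and STAT signalling, and the resulting transcription factor complex binds repeats of GAAA in the promoters of its targets. In the brain, microglia, astrocytes, endothelium and the cells of the meninges all respond. Ifnlr1 encodes the chain of the type III (lambda) interferon receptor that binds the ligand. Mx1 and Mx2 encode dynamin-like GTPases that block viruses, Gbp2 a guanylate-binding GTPase strongly induced by interferon gamma, and Oas1a an enzyme that makes the oligoadenylates that switch on RNase L. Isg15 encodes a ubiquitin-like modifier, Ifit3 a protein of the complex that recognises viral RNA, and Irf7 a transcription factor that amplifies the production of type I interferon.

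The promoter stretches that hold the repeat are shown as a description of the members. RefSeq (build GRCr8) gave a promoter of 250 bases before and 50 after the start site for 6 members: Mx1, Ifnlr1, Gbp2, Oas1a, Irf7 and Ifit3. They were searched on both strands for GAAANNGAAA and for GAAANGAAA, the repeat with 2 free bases or with 1 free base between the GAAA copies. GAAANNGAAA was found in 4 of the 6 (Gbp2, Oas1a, Irf7 and Ifit3), against 3.92% of 33469 promoters of the same length. GAAANGAAA was found in Ifnlr1 and Irf7, against 3.50% of those promoters. In the Mx1 window neither run of letters was present. The lines below give the gene's strand 5′ to 3′, with the matches in capitals, a repeat on the opposite strand reading as TTTC. In Irf7 only the longer repeat is in capitals, and in Oas1a 2 overlapping matches are.
Gbp2, chr2:234005671-234005726, plus strand: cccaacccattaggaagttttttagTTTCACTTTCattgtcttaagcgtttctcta
Oas1a, chr12:41330400-41330465, plus strand: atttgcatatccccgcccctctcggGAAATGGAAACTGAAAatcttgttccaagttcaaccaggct
Irf7, chr1:205800058-205800117, minus strand: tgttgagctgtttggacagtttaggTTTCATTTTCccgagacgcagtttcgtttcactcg
Ifit3, chr1:241527257-241527316, plus strand: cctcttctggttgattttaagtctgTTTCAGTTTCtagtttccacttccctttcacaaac
Ifnlr1, chr5:153203395-153203453, plus strand: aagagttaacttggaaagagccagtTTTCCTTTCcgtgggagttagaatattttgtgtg
In Gbp2, Oas1a, Irf7 and Ifit3 the longer repeat began 31 to 69 bases before the start site, and in Ifnlr1 the shorter one began 177 bases before it. A match describes the letters and does not show binding.

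Library totals lay between 10.8M and 20.4M counts (median 14.5M). The 8 genes were low to moderate in these tissues: over the 64 libraries the count of Ifnlr1 ran from 4 to 133, that of Oas1a from 5 to 150 and that of Mx2, the gene with the most reads, from 82 to 717. Values below are CPM, read counts scaled to a common library total after TMM normalization, and levels are compared between groups and not between genes. The row for the ApoE3 donor sequence held 1242 to 3128 CPM in ApoE3 libraries and 1186 to 2388 CPM in ApoE4 libraries, so it does not check the genotype label. In bulk tissue, fewer cells of a type and less RNA per cell cannot be told apart. Mx1 and Mx2, Oas1a and its sister genes, Gbp2 and Ifit3 belong to families of similar sequence, and the counting of reads shared between copies is not given in the sources used here. Their values are uncertain to that extent.

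Ifnlr1 and Mx2 differed by genotype in both regions and on both treatments. Ifnlr1, the lambda receptor, was higher in ApoE4 than in ApoE3 rats by 1.70 to 2.83 on the log2 scale. Mx2 was higher in all 4 comparisons too, by 1.02 to 1.55. Mx1 was higher in ApoE4 rats in the hippocampus on doxorubicin, by 1.24, and did not pass in the other 3 comparisons. Gbp2, Oas1a, Irf7, Isg15 and Ifit3 passed in none of the 4. By region and treatment, 2 of 8 members passed in hippocampus on PBS, where 3.81% of the genes tested passed, 3 of 8 in hippocampus on doxorubicin (3.63%), 2 of 8 in cortex on PBS (18.2%) and 2 of 8 in cortex on doxorubicin (12.0%). All the members that passed were higher in ApoE4. The 8 were chosen with earlier results of these data known, so these shares are no test of them as a set. An adjusted p is from edgeR's quasi-likelihood F-test with sex as covariate, adjusted by Benjamini-Hochberg over all genes tested, with a threshold of 0.05.

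**Figure D1:**
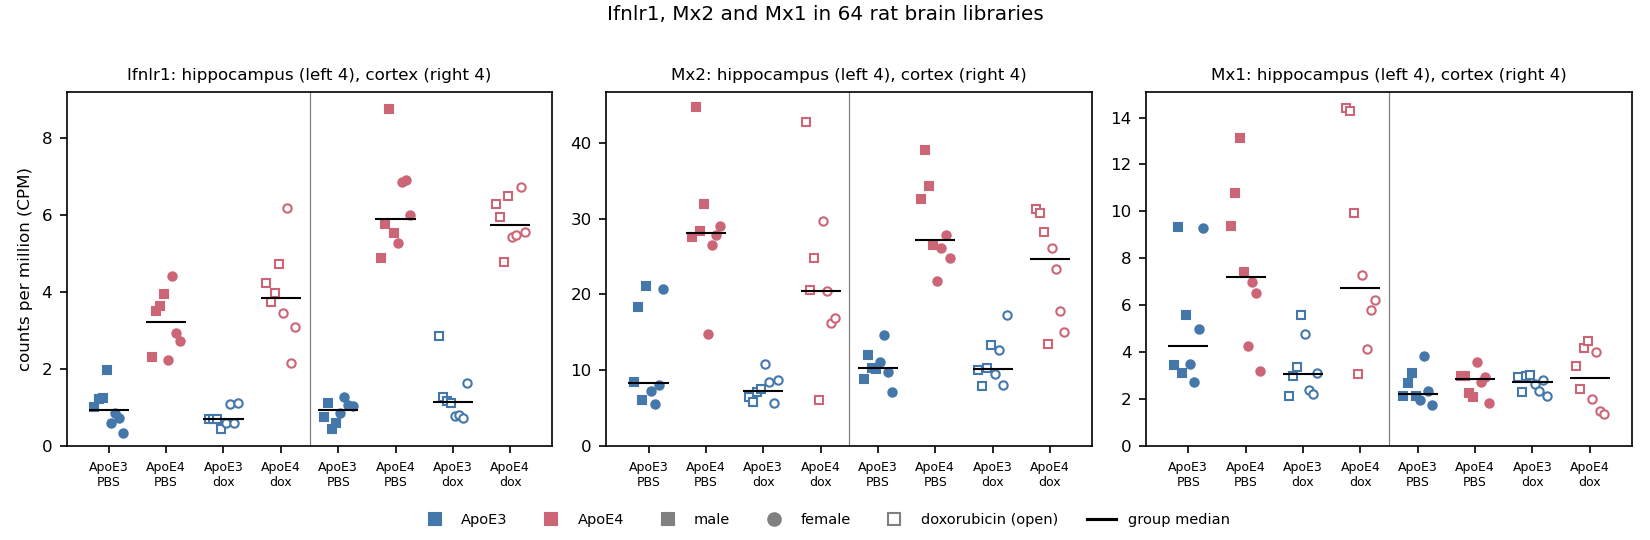
CPM of Ifnlr1, Mx2 and Mx1 in each library, by genotype and treatment, with hippocampus left and cortex right of the grey line; squares are males, circles females, open symbols doxorubicin and black lines the median of 8 libraries. ApoE4 libraries of Ifnlr1 lie above all ApoE3 libraries of the same region and treatment, and Mx1 is spread more widely in hippocampus than in cortex.

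In the hippocampus of PBS rats, Ifnlr1 ran from 0.337 to 1.98 CPM in ApoE3, with a median of 0.936, and from 2.22 to 4.43 CPM in ApoE4, with a median of 3.23. In hippocampus on doxorubicin the range was 0.448 to 1.11 CPM (median 0.700) in ApoE3 and 2.16 to 6.19 CPM (median 3.86) in ApoE4. In the cortex of PBS rats Ifnlr1 ran from 0.428 to 1.28 CPM (median 0.945) in ApoE3 and from 4.90 to 8.77 CPM (median 5.90) in ApoE4. In each of these 3 pairs of groups the highest ApoE3 library was below the lowest ApoE4 library. In cortex on doxorubicin the ApoE3 libraries ran from 0.736 to 2.87 CPM (median 1.14) and the ApoE4 libraries from 4.78 to 6.75 CPM (median 5.75), again without overlap. Groups did not overlap for 1.07%, 1.08%, 2.15% and 2.20% of the genes tested, in the order hippocampus on PBS, hippocampus on doxorubicin, cortex on PBS and cortex on doxorubicin.

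The log2 difference of Ifnlr1, ApoE4 minus ApoE3, was 1.70 in hippocampus on PBS (SE 0.24, edgeR adjusted p = 1.24e-05). It was 2.38 in hippocampus on doxorubicin (SE 0.24, edgeR adjusted p = 2.94e-08), 2.83 in cortex on PBS (SE 0.20, edgeR adjusted p = 5.07e-13) and 2.14 in cortex on doxorubicin (SE 0.19, edgeR adjusted p = 1.80e-10). The call held in males alone and in females alone in all 4 comparisons, with log2 differences from 1.30 to 3.14. Ordered by median, the 4 ApoE4 groups of Ifnlr1 came first and the 4 ApoE3 groups last. The ranges of every 2 neighbours in that order overlapped, also the lowest ApoE4 group (hippocampus on PBS) and the highest ApoE3 group (cortex on doxorubicin), because 1 ApoE3 cortex library reached 2.87 CPM.

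Mx2, one of the Mx GTPases, ran in the hippocampus of PBS rats from 5.59 to 21.1 CPM (median 8.25) in ApoE3 and from 14.8 to 44.7 CPM (median 28.1) in ApoE4. The groups overlapped, since 3 ApoE3 libraries lay between 18.3 and 21.1 CPM and the others at 8.49 CPM or below. In hippocampus on doxorubicin Mx2 ran from 5.70 to 10.8 CPM (median 7.29) in ApoE3 and from 6.09 to 42.7 CPM (median 20.5) in ApoE4, and 7 of the 8 ApoE4 libraries lay above all ApoE3 libraries. The eighth, from rat 18, a male, stood at 6.09 CPM in hippocampus, and its cortex library at 13.4 CPM was the lowest of its group. In the cortex of PBS rats Mx2 ran from 7.09 to 14.7 CPM (median 10.2) in ApoE3 and from 21.8 to 39.0 CPM (median 27.2) in ApoE4, without overlap. In cortex on doxorubicin it ran from 7.88 to 17.3 CPM (median 10.2) in ApoE3 and from 13.4 to 31.2 CPM (median 24.7) in ApoE4, with 6 of 8 ApoE4 libraries above all ApoE3 libraries.

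The log2 difference of Mx2 was 1.28 in hippocampus on PBS (SE 0.29, edgeR adjusted p = 0.00686) and 1.55 in hippocampus on doxorubicin (SE 0.30, edgeR adjusted p = 0.00129). It was 1.46 in cortex on PBS (SE 0.16, edgeR adjusted p = 3.38e-08) and 1.02 in cortex on doxorubicin (SE 0.16, edgeR adjusted p = 3.07e-05). In cortex Mx2 passed within each sex. In hippocampus it passed in neither sex alone, with differences of similar size: on PBS 1.30 in males (edgeR adjusted p = 0.253) and 1.27 in females (0.10), and on doxorubicin 1.81 in males (0.0933) and 1.31 in females (0.0886). Ordered by median, the 4 ApoE4 groups again came before the 4 ApoE3 groups, and all neighbours overlapped.

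Mx1, the other Mx GTPase, ran in hippocampus on doxorubicin from 2.14 to 5.60 CPM (median 3.05) in ApoE3 and from 3.05 to 14.4 CPM (median 6.75) in ApoE4. Of the 8 ApoE4 libraries, 6 lay above all ApoE3 libraries, and the lowest was again rat 18. The log2 difference was 1.24 (SE 0.30, edgeR adjusted p = 0.0125). It was 1.56 in males alone (edgeR adjusted p = 0.146) and 0.91 in females alone (0.321), and passed in neither sex alone. In hippocampus on PBS Mx1 ran from 2.73 to 9.33 CPM (median 4.25) in ApoE3 and from 3.20 to 13.1 CPM (median 7.20) in ApoE4, and the log2 difference of 0.49 did not pass (SE 0.29, edgeR adjusted p = 0.434). In cortex the medians of its 4 groups lay between 2.23 and 2.90 CPM, and its log2 differences were 0.11 on PBS (edgeR adjusted p = 0.767) and 0.10 on doxorubicin (0.795).

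**Figure D2:**
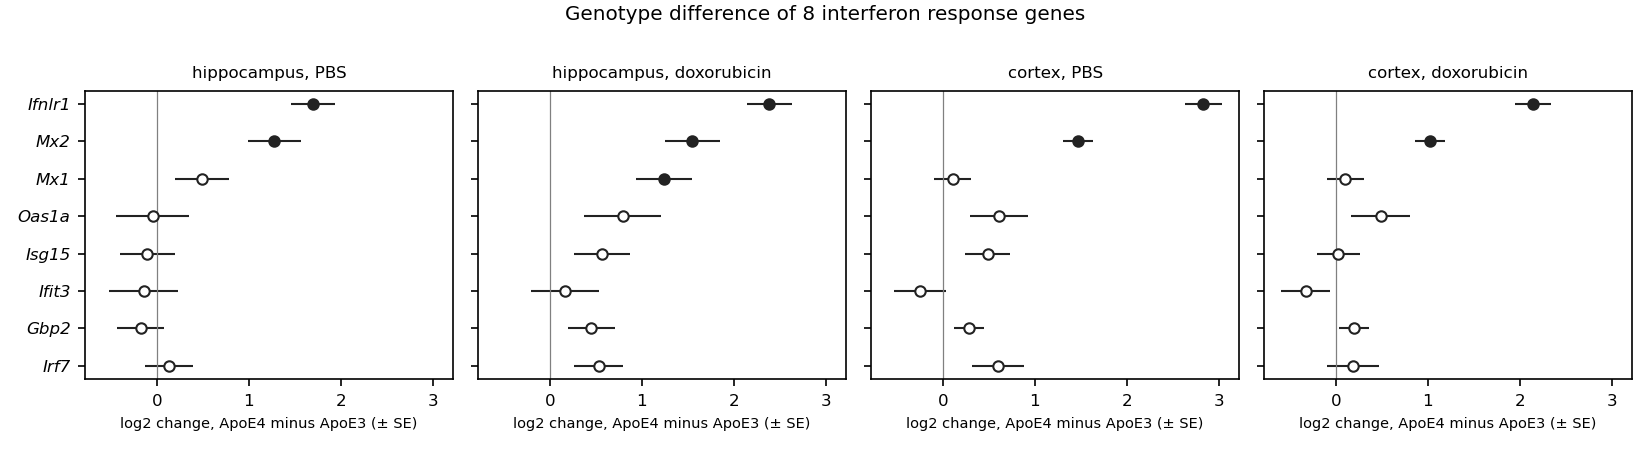
Log2 difference of ApoE4 minus ApoE3 for each of the 8 genes in 4 pairs of groups of 8 libraries; points are edgeR estimates, bars ± 1 SE, and filled points passed an adjusted p of 0.05. Ifnlr1 and Mx2 are filled in every panel, Mx1 in hippocampus on doxorubicin alone, and the other genes in none.

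The other 5 members gave smaller differences. In hippocampus on PBS those of Irf7, Oas1a, Isg15, Ifit3 and Gbp2 lay between -0.17 and 0.14, with adjusted p of at least 0.808. In hippocampus on doxorubicin all 5 were above 0, from 0.17 for Ifit3 to 0.79 for Oas1a (adjusted p 0.331 to 0.881). All 5 were lower without 1 library, that of rat 10 of the ApoE4 doxorubicin group. They were then 0.23 for Oas1a, 0.09 for Gbp2, 0.21 for Irf7, 0.28 for Isg15 and -0.22 for Ifit3. In cortex on PBS the largest were Oas1a at 0.61 (SE 0.32, edgeR adjusted p = 0.182) and Irf7 at 0.60 (SE 0.28, edgeR adjusted p = 0.133), and Ifit3 was at -0.25. Irf7, the amplifying transcription factor, had a median of 2.87 CPM in ApoE3 and 5.21 CPM in ApoE4 there, with 4 of 8 ApoE4 libraries above all ApoE3 libraries. It passed when the 16 libraries compared were fitted alone (0.60, edgeR adjusted p = 0.0337). In cortex on doxorubicin the 5 lay between -0.33 and 0.49. In hippocampus the median log2 difference of all 8 members was 0.05 on PBS and 0.68 on doxorubicin. In cortex it was 0.54 on PBS and 0.19 on doxorubicin. Over all genes tested the median lay between -0.01 and 0.00. The member medians, too, describe genes chosen with earlier results known.

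**Figure D3:**
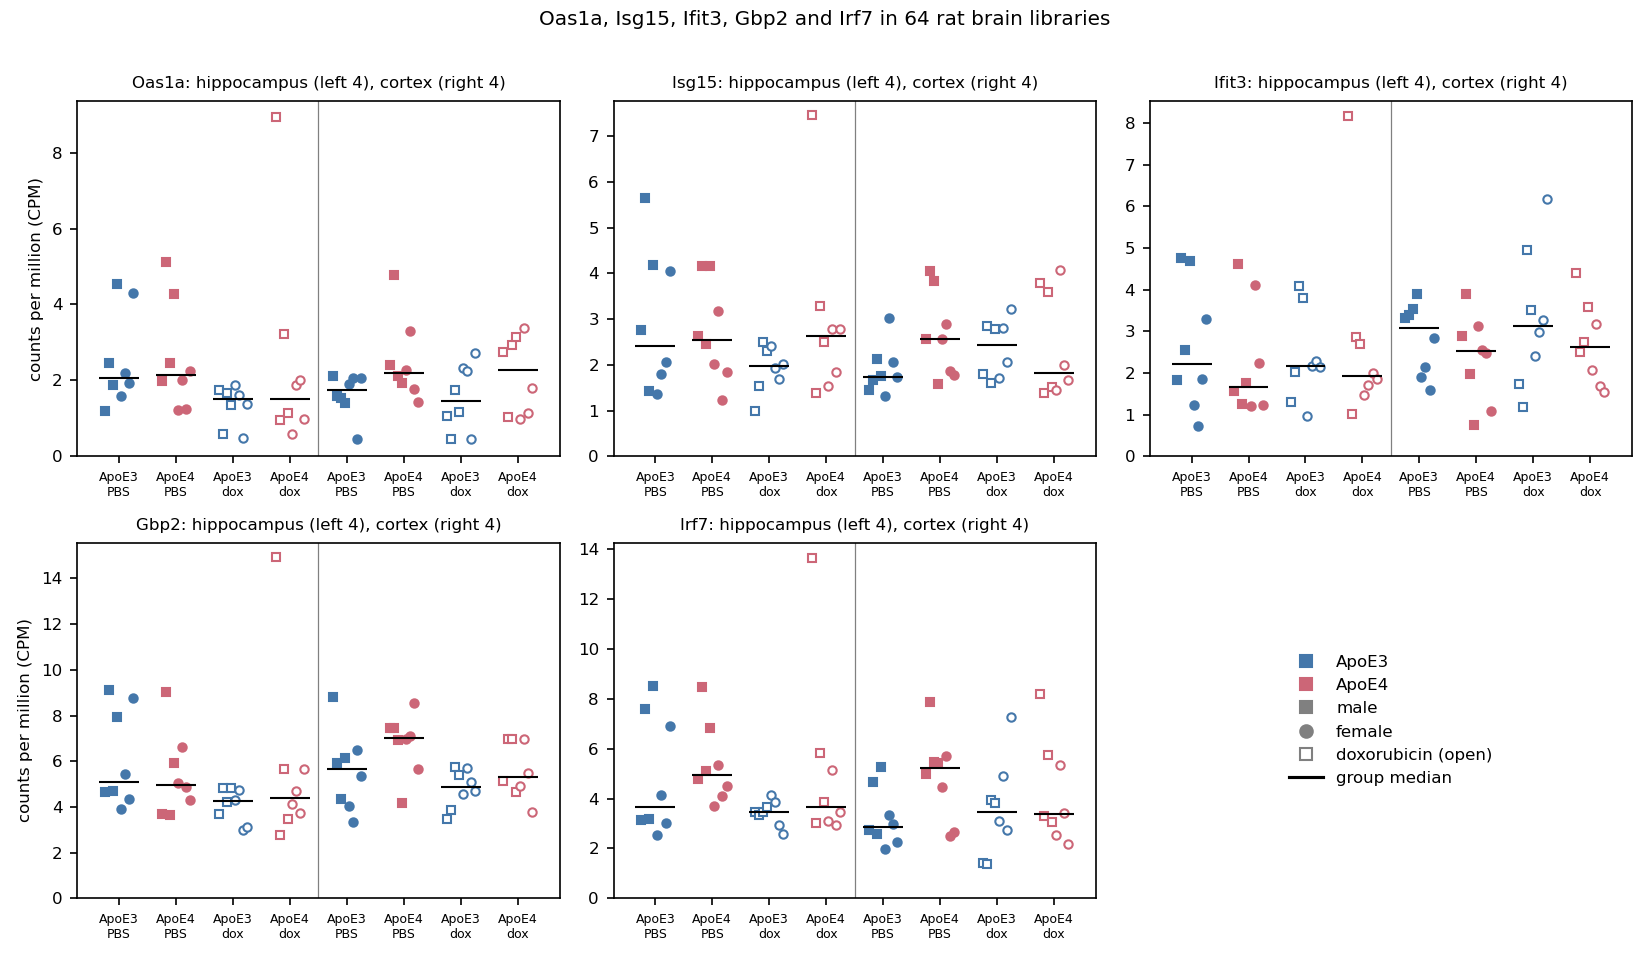
CPM of Oas1a, Isg15, Ifit3, Gbp2 and Irf7 in each library, by genotype and treatment, with hippocampus left and cortex right of the grey line; squares are males, circles females, open symbols doxorubicin and black lines the median of 8 libraries. In each panel the groups overlap, and 1 ApoE4 doxorubicin library of the hippocampus stands highest, at 14.96 CPM for Gbp2 and 13.7 CPM for Irf7.

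Doxorubicin passed for none of the 8 genes in any region or genotype, nor did it for any of the 14775 to 14899 genes tested (0% called, where 1098 to 1530 genes had an unadjusted p under 0.05). DESeq2 called 145 genes in ApoE3 hippocampus, 1 in ApoE4 hippocampus, 77 in ApoE3 cortex and 37 in ApoE4 cortex, and none of the 8 members was among them. In the authors' deposited table for ApoE3 hippocampus, the adjusted p of the members ran from 0.128 for Gbp2 to 0.945 for Ifit3. In ApoE3 hippocampus all 8 edgeR log2 differences, doxorubicin minus PBS, were below 0, with a median of -0.57 beside 0.00 over all genes tested. Oas1a stood at -0.90 (SE 0.32, edgeR adjusted p = 0.296), Mx1 and Mx2 at -0.65, Gbp2 at -0.58 and Ifit3 at -0.10. In ApoE4 hippocampus 5 of 8 were above 0 (range -0.37 to 0.29), in ApoE3 cortex 6 of 8 (-0.20 to 0.56) and in ApoE4 cortex 2 of 8 (-0.34 to 0.17).

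This comparison shares its ApoE3 PBS libraries with the genotype comparison on PBS. The lower values on doxorubicin in ApoE3 hippocampus moved with 3 of these libraries, those of rats 41, 45 and 61. They were the 3 highest of the 8 ApoE3 PBS libraries in 7 of the 8 genes, Ifnlr1 being the exception. Mx2 was 18.3 to 21.1 CPM in them and 5.59 to 8.49 CPM in the other 5, Irf7 6.91 to 8.52 against 2.55 to 4.13 CPM, and Gbp2 7.93 to 9.11 against 3.92 to 5.46 CPM. They also held more RNA of the meninges, the membranes around the brain. All 6 meningeal fibroblast markers with a row (of 8 listed: collagens, Dcn, Lum and others) were above 0 counts in every group, and their summed level ran from 64.9 to 447 CPM (median 192) in ApoE3 PBS hippocampus and from 48.9 to 127 CPM (median 54.8) in ApoE3 doxorubicin hippocampus. In ApoE4 hippocampus it ran from 56.4 to 446 CPM (median 93.9) on PBS and from 51.5 to 745 CPM (median 72.1) on doxorubicin, with rats 3 and 10 the highest. Rat 10 was the highest ApoE4 doxorubicin library of the hippocampus in the same 7 genes.

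Those 5 hippocampal libraries, with a mean meningeal marker level above 5 on the log2 CPM scale, were left out in an alternative chosen after the values were seen. Without the 3 ApoE3 control libraries, the doxorubicin difference in ApoE3 hippocampus was 0.10 for Mx2, 0.10 for Irf7, 0.03 for Isg15 and 0.47 for Ifit3. It remained below 0 for Oas1a (-0.38), Ifnlr1 (-0.26), Gbp2 (-0.19) and Mx1 (-0.11). In all genes but Ifnlr1 these 3 were the highest ApoE3 controls. Leaving them out therefore raises differences from these controls by construction, and is no separate test of the meningeal level. The genotype calls held without the 5. In hippocampus on PBS the difference of Mx2 was 1.91 (edgeR adjusted p = 1.36e-05), moved upward from 1.28, and that of Ifnlr1 1.83 (5.71e-05). In hippocampus on doxorubicin Mx2 was at 1.35 (edgeR adjusted p = 0.000166), Ifnlr1 at 2.38 (3.58e-08) and Mx1 at 1.13 (0.0157). Mx1 on PBS was at 0.95 and did not pass (edgeR adjusted p = 0.136).

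Across the 32 hippocampal libraries, with group means removed, the correlation of the meningeal marker level passed after adjustment for 7 of the 8 genes by Pearson's r. By Spearman's rho it passed for 6, Mx1 being the gene lost. In both regions the relation was tested for these 8 genes alone. The share of all genes that follow the marker level is not known, so the relation is not shown to be particular to the members. Pearson's r was 0.82 for Irf7 (permutation p = 2e-05, adjusted over 16 relations 0.00032), 0.81 for Gbp2 (permutation p = 4e-05, adjusted 0.00032) and 0.63 for Mx2 (permutation p = 0.00207, adjusted 0.00552). Spearman's rho was 0.70, 0.68 and 0.53 in the same order (permutation p = 4e-05, 0.00017 and 0.00511). Without the 2 libraries farthest from the median level, r was 0.71, 0.67 and 0.53. Ifnlr1 gave an r of 0.16 (permutation p = 0.454, adjusted 0.484) and a rho of 0.24 (permutation p = 0.220). In the 32 cortical libraries 2 of the 8 genes passed, by both measures. There r was 0.54 for Mx2 (permutation p = 0.0048, adjusted 0.011), 0.48 for Irf7 (permutation p = 0.0114, adjusted 0.0229). For Gbp2 it was 0.23 (permutation p = 0.194, adjusted 0.222), and 0.02 without the 2 farthest libraries, and for Ifnlr1 -0.01.

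**Figure D4:**
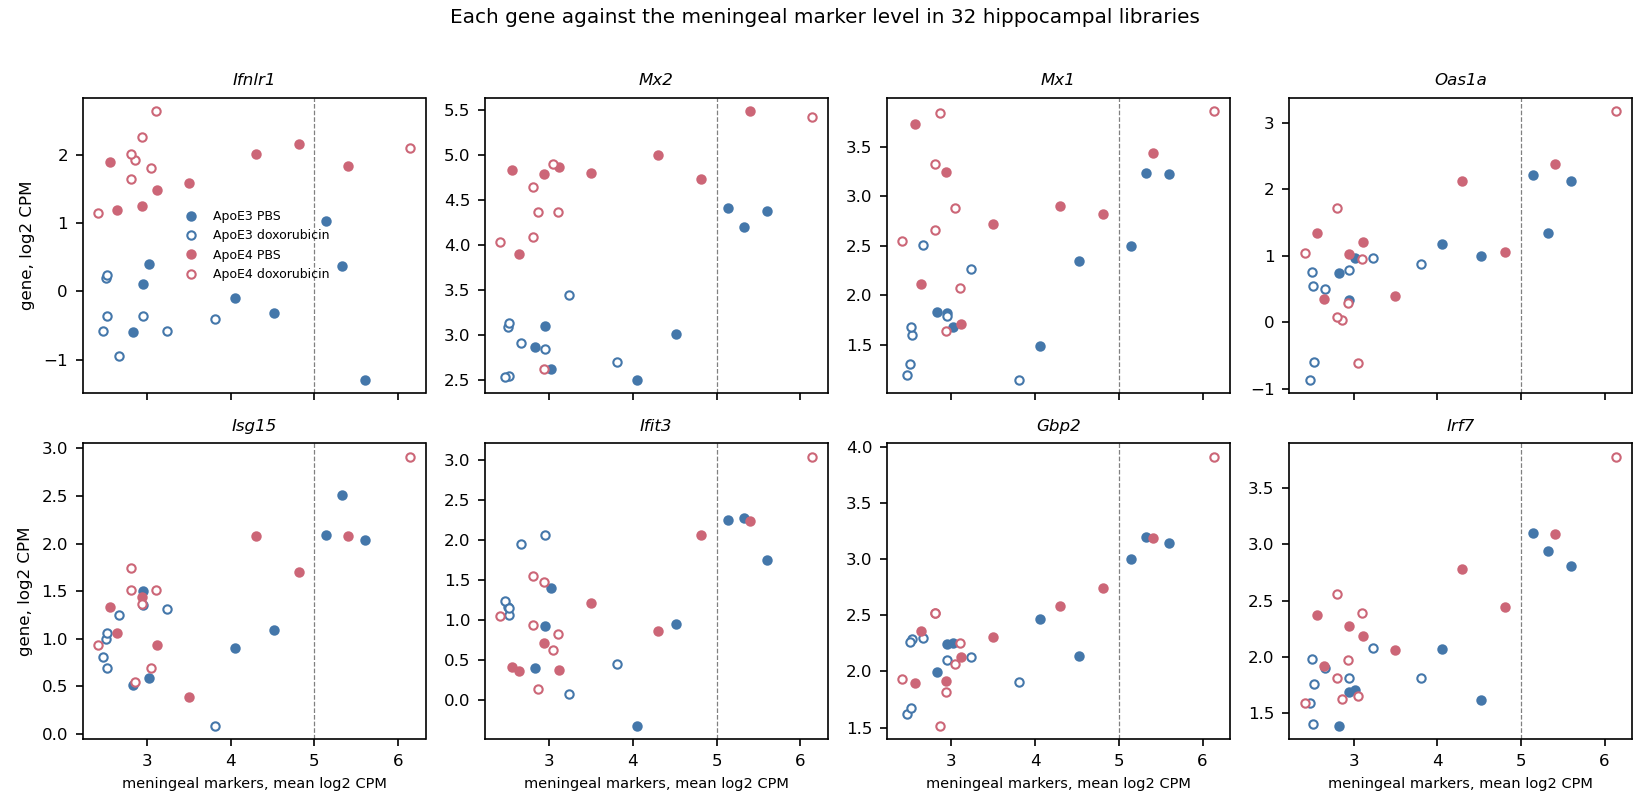
Log2 CPM of each gene against the mean log2 CPM of 6 meningeal fibroblast markers in 32 hippocampal libraries; filled points are PBS, open points doxorubicin, blue ApoE3 and red ApoE4, and the dashed line marks a level of 5. Gbp2 and Irf7 are higher at higher marker levels in both genotypes, while all ApoE4 points of Ifnlr1 lie above all its ApoE3 points.

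The same markers were set against genotype. In hippocampus on PBS all 6 meningeal markers had log2 differences below 0 (median -0.45, 0 passed). In hippocampus on doxorubicin 6 of 6 were above 0 (median 1.21, 1 passed). In cortex on PBS 6 of 6 were above 0 (median 0.96, 4 passed), with a summed level of 57.4 to 94.5 CPM in ApoE3 and 68.2 to 206 CPM in ApoE4, and 4 of 4 endothelial and 3 of 3 border macrophage markers passed as higher. In cortex on doxorubicin 4 of 6 were above 0 (median 0.18, 0 passed). The part of these markers' cells in the genotype differences of the members was not tested in any of the comparisons. Of the 7 microglial markers, 2 passed as higher and 3 as lower in cortex on PBS. Over all genes tested 3.81%, 3.63%, 18.2% and 12.0% passed in the 4 comparisons, in the order given. Tests of endothelial, border macrophage and microglial markers are given for cortex on PBS alone. In cortex on doxorubicin the median summed level of border macrophage markers was 8.85 CPM in ApoE3 and 13.2 CPM in ApoE4. That of endothelial markers was 232 CPM in ApoE3 and 216 CPM in ApoE4.

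No member passed the test of whether its genotype difference depends on treatment (0 of 8 in hippocampus and 0 of 8 in cortex, where 0% of all genes tested passed and 1261 and 834 genes had an unadjusted p under 0.05; DESeq2 called 2 genes and 0 genes). In hippocampus the difference between the doxorubicin and the PBS contrast was 0.27 (SE 0.41) for Mx2, 0.68 (SE 0.34) for Ifnlr1 and 0.75 (SE 0.42) for Mx1, the last with edgeR adjusted p = 0.665. In cortex it was -0.44 (SE 0.23) for Mx2 and -0.69 (SE 0.29) for Ifnlr1 (edgeR adjusted p = 0.879 for both). So the passing of Mx1 on doxorubicin and not on PBS is not shown to be a difference between treatments.

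Between the regions of PBS rats, Mx1 and Ifnlr1 differed. Mx1 was higher in hippocampus than in cortex in both genotypes, by 1.05 in ApoE3 (SE 0.26, edgeR adjusted p = 0.00259) and by 1.45 in ApoE4 (SE 0.22, edgeR adjusted p = 2.30e-05). Without the 3 ApoE3 hippocampal libraries of high meningeal level, the ApoE3 value was 0.50 and did not pass (edgeR adjusted p = 0.0516). Ifnlr1 was lower in hippocampus than in cortex in ApoE4, by a log2 difference of -0.97 (SE 0.16, edgeR adjusted p = 4.36e-05), and was at 0.14 in ApoE3 (SE 0.30, edgeR adjusted p = 0.719). The difference between these 2 region contrasts of Ifnlr1 was -1.13 (SE 0.32, unadjusted p = 0.00129, edgeR adjusted p = 0.156) and did not pass, in a test where 0.13% of genes passed. Region separated 1 of 8 members in ApoE3, where 49.3% of the genes tested passed, and 2 of 8 in ApoE4 (49.2%). With the rat as block, Irf7 also passed in ApoE3, at 0.51 (edgeR adjusted p = 0.0185), and it passed by DESeq2 (0.59, DESeq2 adjusted p = 0.0399). Without the 3 libraries Irf7 was at 0.03 in ApoE3. Mx2 was then lower in hippocampus, at -0.58 (edgeR adjusted p = 0.00443), and Ifit3 at -0.71 (0.00942). These 3 were the highest ApoE3 PBS hippocampal libraries in every member but Ifnlr1. Leaving them out lowers the hippocampal values by construction, so neither the new passes nor the loss of Mx1 is a separate test.

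Within groups, 7 of the genes varied together, for most pairs more in hippocampus than in cortex, and Ifnlr1 had little correlation with them. Over the 64 libraries with the 8 group means removed, Pearson's r of the 21 pairs without Ifnlr1 ran from 0.36 to 0.70 with a median of 0.55. The highest were Irf7 with Isg15 at 0.70, Irf7 with Oas1a at 0.67 and Gbp2 with Ifit3 at 0.65. The 7 pairs with Ifnlr1 ran from -0.09 to 0.17. These are descriptions: the 64 libraries come from 32 rats, and the meningeal level above is shared by the genes. By region, the 21 pairs ran from 0.40 to 0.87 in hippocampus and from 0.10 (Gbp2 with Oas1a) to 0.63 in cortex. The pairs with Ifnlr1 ran from -0.11 to 0.29 in hippocampus and from -0.23 to 0.12 in cortex. In hippocampus Mx1 and Mx2 had an r of 0.72, and in cortex 0.23. The deviations of the same rat in its 2 regions had an r of 0.54 for Irf7, 0.52 for Ifit3, 0.49 for Oas1a and 0.39 for Mx2, and of -0.12 for Mx1, -0.14 for Ifnlr1 and -0.02 for Gbp2.

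**Figure D5:**
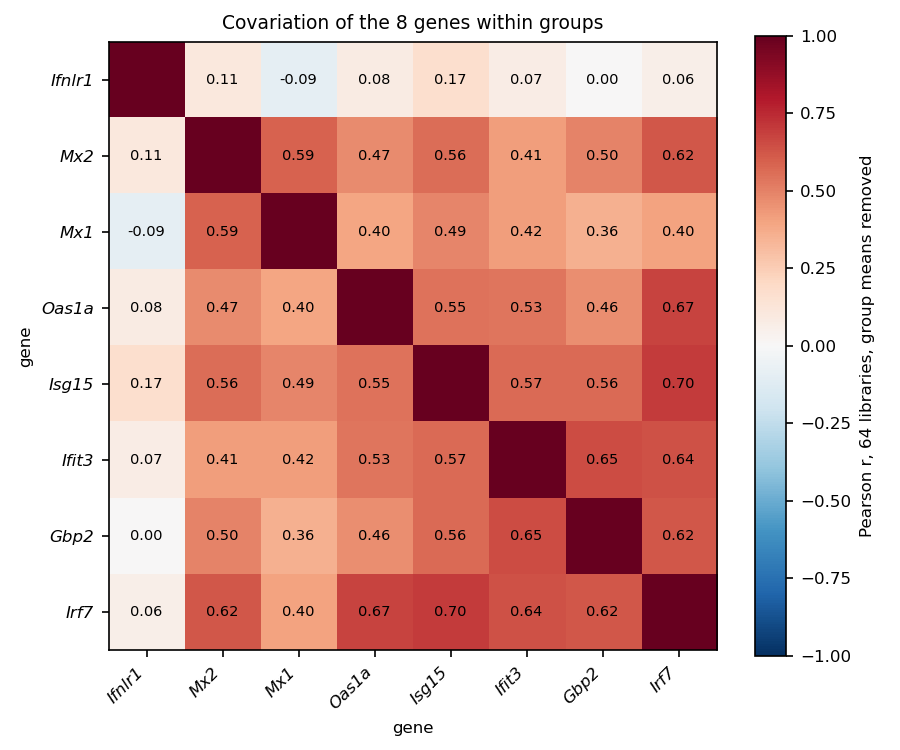
Pearson's r between the 8 genes over 64 libraries, after the mean of each of the 8 groups was subtracted from log2 CPM; the colour scale runs from -1 to 1 on both axes' genes. The row of Ifnlr1 lies between -0.09 and 0.17, and all other pairs between 0.36 and 0.70.

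Of 12946 named genes whose log2 CPM averaged 0 or more, the 3 with the most similar pattern within groups were looked up for each member, as r over the same 64 libraries. For Mx2 the nearest were Ifitm3 (0.70), an interferon-induced membrane protein, Adcy4 (0.68) and Col18a1 (0.67), a collagen of basement membranes. For Mx1 they were Rbpms (0.62), Col6a1 (0.60) and Mamdc2 (0.59). Gbp2 was nearest to Tspan8 (0.81), Emp1 (0.79) and B2m (0.78), the light chain of MHC class I. Oas1a was nearest to Ifi44 (0.75), Oas1b (0.70) and Psme1 (0.69), Irf7 to RT1-T24-4 (0.78), Oas1b (0.76) and Ifi44 (0.75), and Isg15 to Ifi44 (0.76), Slfn2 (0.74) and Oas1b (0.74). Ifit3 was nearest to Zfp36 (0.76), Rsad2 (0.75) and Ifit2 (0.71). For Ifnlr1 the nearest were Larp1b (0.60), Synj2bp (0.57) and Stt3b (0.55). None of the 3 nearest genes of Ifnlr1, of Mx1 or of Gbp2 is in the interferon lists.

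The rest of the pathway was read from 9 lists of ligands, receptors, signal transducers, sensors, regulatory factors and effectors, with 113 genes other than the members, of which 80 matched a row. In hippocampus on PBS 0 of 80 passed by genotype, against 3.81% of all genes, and the 80 had a median log2 difference of 0.01. In hippocampus on doxorubicin 1 of 80 passed (1.25%, beside 3.63% of all genes). It was Ifnar1, a chain of the type I receptor, at 0.13 (edgeR adjusted p = 0.0322). Without the 5 hippocampal libraries of high meningeal level 0 of 80 passed in either comparison. Of all genes 2.06% then passed on PBS and 3.39% on doxorubicin. The median difference of the 80 was 0.13 on PBS and -0.04 on doxorubicin. None of the 11 listed interferon ligands matched a row. Rows were matched by the authors' gene names, which cover 15432 identifiers of 32551 gene rows. Whether an unnamed row holds reads of a ligand is therefore not known. Among the 5 other receptor genes, Ifnar1 also passed in cortex, at 0.13 on PBS (edgeR adjusted p = 0.0158) and 0.11 on doxorubicin (0.0496). Il10rb, the second chain of the lambda receptor, did not pass in any of the 4, with differences from -0.10 to 0.14.

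In cortex on PBS 17 of the 80 passed by genotype (21.3%, beside 18.2% of all genes), 16 higher in ApoE4 and 1 lower. The highest-ranked were Ddx58, the RIG-I sensor of viral RNA, at 0.80 (SE 0.15, edgeR adjusted p = 0.000305), Ifi35 at 0.63 (SE 0.12, edgeR adjusted p = 0.000321), Trim25, the ligase that activates RIG-I, at 0.51 (edgeR adjusted p = 0.00351), and Xaf1 at 0.48 (0.00585). Ifit1bl was lower, at -0.55 (edgeR adjusted p = 0.0243). By role, 8 of 33 other antiviral effectors passed as higher and 1 as lower, and 3 of 12 nucleic acid sensors and adaptors as higher. In cortex on doxorubicin 7 of the 80 passed (8.75%, beside 12.0% of all genes), 3 higher and 4 lower. Ddx58 was again higher, at 0.59 (edgeR adjusted p = 0.00838), with Ifi35 at 0.46 (0.0106). Oas1b and Oas3, sisters of Oas1a, were lower at -1.10 (edgeR adjusted p = 0.00134) and -0.92 (0.0112), as were Irf3 at -0.26 (0.00485) and the kinase Tyk2 at -0.17 (0.0218).

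Doxorubicin passed for 0 of 78 or 79 of these genes in each region and genotype. In ApoE3 hippocampus 12 of 79 were above 0 on doxorubicin, with a median of -0.15. Without the ApoE3 PBS libraries of rats 41, 45 and 61, 42 of 79 were above 0, with a median of 0.01. In PBS rats, 26 of 80 passed by region in ApoE3 (32.5%, beside 49.3% of all genes), 23 of them higher in hippocampus and 3 lower. Without the same 3 libraries 20 passed, 13 higher and 7 lower. In ApoE4 23 of 78 passed (29.5%, beside 49.2% of all genes), 17 of them higher. In ApoE3 Eif2ak2, the kinase PKR, was higher in hippocampus by 0.45 and Irf9 by 0.65. Zc3hav1 was higher in ApoE4 by 0.55, and Irf9 by 0.49. Herc6, an ISG15 ligase of rodents, was lower in hippocampus in both genotypes, at -1.18 and -1.07, as was Jak2 at -0.29 and -0.37.

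Genes next to the members in RefSeq's gene order were counted too: those tested among the 5 nearest named genes on either side. Mx1 and Mx2 are near each other, with 1 other gene between them. Of the 69 neighbours that are not members, 2 passed by genotype in hippocampus on PBS (2.90%), 3 in hippocampus on doxorubicin (4.35%) and 14 in each of the 2 cortical comparisons (20.3%), beside 3.81%, 3.63%, 18.2% and 12.0% of all genes. Around Ifnlr1, Myom3, a sarcomere protein gene 2 places away, was lower in ApoE4 in hippocampus on PBS at -1.28 (SE 0.37, edgeR adjusted p = 0.0467), in cortex on PBS at -1.82 (SE 0.26, edgeR adjusted p = 5.00e-06) and in cortex on doxorubicin at -1.49 (SE 0.25, edgeR adjusted p = 5.62e-05). Nipal3, 7 places to the other side, was higher by 0.22 in hippocampus on doxorubicin (edgeR adjusted p = 0.0472), by 0.34 in cortex on PBS (0.000768) and by 0.38 in cortex on doxorubicin (0.000279). Stpg1 was lower in cortex, at -0.49 and -0.41, and Grhl3 on PBS at -0.71. Around the Mx genes, Pcp4 was lower in cortex on PBS at -0.34, B3galt5 was higher in cortex on doxorubicin at 0.21, and no neighbour other than Mx1 or Mx2 passed in hippocampus.

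Near Gbp2, Kyat3 was higher in all 4 comparisons, from 0.43 to 0.50, Bmpr1b was higher in cortex (0.46 on PBS and 0.30 on doxorubicin), and Gbp4 and Pdlim5 were higher in cortex on PBS, at 0.97 and 0.37. Near Oas1a, Trafd1 was lower in hippocampus on doxorubicin at -0.14 and in cortex at -0.24 and -0.30, and Rpl6 in cortex on PBS at -0.10. In cortex on doxorubicin 3 of the 10 tested neighbours of Oas1a passed. Its sister genes Oas1b (-1.10) and Oas3 (-0.92), lower there, are given above with the pathway genes. Near Isg15, Noc2l was lower in cortex at -0.17 and -0.24, and Agrn and Klhl17 on doxorubicin at -0.15 and -0.17. Near Irf7, Tmem80 was lower in cortex on PBS at -0.16. Near Ifit3, Lipa was higher at 0.15 and Rpp30 lower at -0.16 in cortex on doxorubicin. There 2 of 10 tested neighbours of Ifit3 passed, and 1 of 10 in cortex on PBS.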

How the data were processed

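Total RNA of 64 libraries was made into sequencing libraries with the NEBNext Ultra II RNA kit, per the labels' protocols. Per the submitters' processing notes, the authors used STAR 2.5.2b and DESeq2 (no version named). Counter, genome build and strandedness are not given in the sources used here, so overlapping and antisense genes cannot be told apart. The deposited count tables hold whole read counts per Ensembl gene for 32551 gene rows, 92 ERCC spike-ins and 1 donor row. The authors' deposited tables of doxorubicin against PBS give a log2 fold change with its p-value, raw and adjusted, and a normalized signal per library, made by the authors, that was not used here. Gene names came from those tables for 15432 identifiers, and all 8 members and 80 of 113 other listed genes matched. All per-sample columns were mapped to a library.

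The members, lists and alternatives were chosen with earlier results of these data known. The genes named outside the members were those of smallest p in each list comparison (up to 4 per direction by genotype, up to 2 otherwise) among those that passed. Il10rb was chosen after its values were seen. Of the 5 nearest named neighbours on either side that were tested, only ones that passed were named. For 1 of the listed genes, which is counted in its lists, the single values are not reported here.

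Counts without spike-ins went into edgeR 4.0.16 under R 4.3.3 (filterByExpr, TMM, quasi-likelihood F-test, sex as covariate, Benjamini-Hochberg over all genes, threshold 0.05). Genotype and its interaction with treatment used the 32 libraries of a region, doxorubicin the 16 of a region and genotype, and region the PBS rats. An SE is the absolute log2 change over the square root of F. Log2 CPM carries a prior count of 1. The fits were tested on simulated data. The correlation with the meningeal level was tested with 100000 two-sided permutations within groups. Libraries held 10.8M to 20.4M counts, and this depth and 8 libraries a group limit the precision.

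The same rats gave both regions, per the labels. Deviations of a rat's 2 libraries from their group means had a correlation over 15415 genes from -0.05 to 0.31 (median 0.18), above 0.1 in 26 of 32 rats. Alternatives were DESeq2 1.42.0, RLE size factors, no filter, no sex covariate, 1 sex, only the libraries compared, 1 fit per region, the rat as replicate block for region, each library left out in turn by genotype, and sets of libraries left out for high meningeal or choroid plexus marker levels, the last 2 sets and the turns on doxorubicin being added after the data were seen.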

Additional observations from a re-analysis of the deposited data

Results flagged for a closer look

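In each of the 64 sets of 8 libraries (8 genes in 8 groups) the highest and the lowest library were compared with the rest, and 3 stood apart by Dixon's criterion on log2 CPM, where chance gives about 1 in 20 sets. In ApoE4 hippocampus on doxorubicin, rat 10 held 14.96 CPM of Gbp2, with the other 7 between 2.79 and 5.68 CPM. The same library held 13.65 CPM of Irf7, with the others between 2.95 and 5.81 CPM. It was the library with the highest meningeal marker level of the hippocampus, a mean of 6.14 on the log2 CPM scale. In ApoE3 cortex on PBS, rat 59 held 0.464 CPM of Oas1a, with the others between 1.39 and 2.13 CPM.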

How the results depend on the processing

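The genotype calls of Ifnlr1 and Mx2 in both regions and on both treatments, and of Mx1 in hippocampus on doxorubicin, held with RLE size factors, without the filter, by DESeq2, without the sex covariate, on the 16 libraries compared and with each library left out in turn. The exceptions were Mx2 in hippocampus within 1 sex, 1.30 and 1.27 on PBS and 1.81 and 1.31 on doxorubicin in males and females, and Mx1 there on doxorubicin, 1.56 and 0.91. The halved number of libraries is part of that setting. Leaving out 1 library moved Mx2 between 1.17 and 1.47 in hippocampus on PBS and Ifnlr1 between 1.58 and 1.88.

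The count of genes that passed by genotype was 138 in males and 157 in females of hippocampus on PBS (588 in all libraries), 120 and 141 on doxorubicin (559), 636 in females of cortex on PBS (2788), and 769 and 774 in males and females of cortex on doxorubicin (1837). It was 321 in hippocampus on PBS without the libraries of highest meningeal marker level, and the genotype by region count moved from 20 to 9. DESeq2 gave 72 there, 2 for genotype by treatment in hippocampus, and for doxorubicin 145 in ApoE3 and 1 in ApoE4 hippocampus and 77 in ApoE3 and 37 in ApoE4 cortex. Without a filter doxorubicin gave 7 in ApoE3 and 4 in ApoE4 cortex, and 10 in ApoE3 cortex with 1 fit of the region. The cause was not tested.

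Log2 differences that did not pass changed sign as follows. Without the hippocampal libraries of highest meningeal level, the genotype difference on PBS was 0.080 for Gbp2, 0.29 for Oas1a, 0.40 for Isg15 and 0.24 for Ifit3, and that of Ifit3 on doxorubicin was -0.24. Genotype by treatment became -0.56 for Mx2, -0.0061 for Gbp2, -0.057 for Oas1a, -0.40 for Irf7, -0.13 for Isg15 and -0.48 for Ifit3. Doxorubicin in ApoE3 became 0.10 for Mx2, 0.10 for Irf7, 0.030 for Isg15 and 0.47 for Ifit3, and in ApoE4 -0.18 for Gbp2 and -0.10 for Isg15. Region in ApoE3 became -0.58 for Mx2, which then passed, -0.25 for Gbp2 and -0.013 for Isg15, and genotype by region 0.44 for Mx2. Ifit3 in ApoE3 (-0.71) and Gbp2 in ApoE4 (-0.50) then passed by region, and Mx1 in ApoE3 did not (0.50). The libraries left out were the highest of their hippocampal group in these genes, so the direction of these region shifts was set by construction. In hippocampus on PBS Oas1a was 0.040 without the sex covariate and 0.46 in males, and Ifit3 0.32 in females. Ifit3 on doxorubicin was -0.11 in females. In cortex, Ifit3 on PBS was 0.14 in females, and on doxorubicin females gave -0.20 for Mx1, -0.089 for Oas1a, -0.43 for Irf7 and -0.11 for Isg15, and males 0.16 for Ifit3. Genotype by treatment of Mx1 in cortex, -0.0017, became 0.0025 with RLE, 0.012 without a filter, 0.0016 by DESeq2 and 0.014 without sex. Without the cortical libraries of highest choroid plexus level (rats 58, 72 and 19), it was 0.0025 for Gbp2 and 0.26 for Ifit3, and doxorubicin in ApoE3 cortex was -0.048 for Irf7. Region in ApoE4 was 0.024 for Oas1a without sex, and for Isg15 0.0033 with RLE, 0.0058 without a filter, 0.0031 by DESeq2 and 0.017 without sex. With 1 library left out, the genotype difference in hippocampus on PBS ran from -0.19 to 0.18 for Oas1a, -0.22 to 0.062 for Isg15 and -0.42 to 0.0058 for Ifit3, on doxorubicin from -0.22 to 0.30 for Ifit3, and in cortex on doxorubicin from -0.0079 to 0.21 for Mx1 and -0.14 to 0.12 for Isg15.

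With the rat as replicate block, Irf7 in ApoE3 also passed by region, at 0.51, and no other member's call changed. That paired fit gave 7376 genes by region in ApoE3, 7179 in ApoE4 and 23 for genotype by region. Depth limits the low genes, with as few as 4 counts of Ifnlr1 and 5 of Oas1a in a library.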
